A study of Mus musculus with 8 samples.

Results

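Genes for the enzymes that place and remove cytosine methylation, and for the catalytic subunits of Polycomb repressive complex 2 (PRC2), were followed across the transformation of the notochord into the nucleus pulposus (NP). The 10 genes were chosen by name: Dnmt1, Uhrf1, Dnmt3a, Dnmt3b, Dnmt3l, Tet1, Tet2, Tet3, Ezh1 and Ezh2, out of 43346 gene identifiers counted. Whole-transcriptome sequencing had been carried out on notochord-derived cells (NDCs) of Shh-cre;ROSA:YFP mice, in which Cre made under the control of Shh turns on a yellow fluorescent protein (YFP) reporter in Shh-expressing cells and all their descendants. There were 4 litters at embryonic day (E) 12.5, named NDP10.2, NPD3, NPD4 and NPD9.2, and 4 at postnatal day (P) 0, named NPD26, NPD27, NPD28 and NPD30, each a pool of about 6 animals of that genotype with no further treatment. Notochords at E12.5 were dissected whole and frozen without sorting, whereas P0 cells were freed from the discs and sorted for YFP, so stage and isolation cannot be told apart. In pooled tissue RNA, fewer cells of a type and less RNA per cell cannot be told apart either.

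DNA methylation in mammals is laid down on CpG dinucleotides by the de novo enzymes DNMT3A and DNMT3B, with DNMT3L as a cofactor without catalytic activity, and is copied after replication by DNMT1, which UHRF1 guides to hemimethylated sites. The TET enzymes oxidise 5-methylcytosine, which opens the way to its removal. PRC2 methylates lysine 27 of histone H3 through EZH2, the subunit typical of dividing cells, or EZH1, which is found more widely in resting cells, and this mark holds developmental regulators silent.

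Of the 9 genes with enough reads to be tested, 1 was higher and 1 was lower at P0 compared to E12.5. Ezh1 mRNA abundance was 2.02-fold higher at P0 (95% interval 1.31 to 3.12) and Tet3 was 1.71-fold lower. For comparison, 27.9% of the 15467 genes tested passed the same threshold, an adjusted p under 0.05 in edgeR's quasi-likelihood test, with 16.0% higher and 12.0% lower at P0, against 22.2% of these 9. The log2 fold change was below 0 for 8 of the 9, with a median of -0.36, beside 0.04 over all genes tested. Their median absolute log2 fold change was 0.46, compared with 0.61 over all genes tested. The share of all tested genes whose log2 fold change lay between those of Tet3 and Ezh1 was 62.3%.

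Libraries held 4442775 to 7180221 reads on genes at E12.5 and 6371842 to 8904050 at P0. On these totals 3 counts corresponded to 0.337 to 0.675 CPM (counts scaled to the size of the library), a floor that covers counting error only. The CPM of genes given here use library sizes adjusted by TMM factors of 0.92 to 1.16, so the floor is approximate for them. Reads that fell on more than 1 gene took 16.3% and 17.5% of NDP10.2 and NPD9.2, compared with 7.07% to 11.6% of the other litters. The same litters had the highest summed CPM of 6 fetal serum protein genes, at 606 and 734, against 46.8 and 226 in NPD3 and NPD4 and at most 3.61 at P0. Of 14 leukocyte markers, all 14 were higher at P0, with a summed level of 5121 to 6711 CPM in NPD26, NPD27 and NPD28 but 417 in NPD30, and 91.7 to 193 at E12.5. Neutrophil markers summed to 8279 CPM in NPD28 and to 913 to 1119 in the other P0 litters. Of 5 osteoblast markers tested 4 were higher at P0, with sums of 29.4 to 84.1 CPM at E12.5 and 324 to 671 at P0. Markers of other embryonic tissues went the other way. All 7 sclerotome markers were lower at P0, with sums of 159 to 225 CPM at E12.5 and 14.7 to 29.4 at P0. All 6 muscle markers tested were lower as well, from 165 to 827 CPM at E12.5 to 3.88 to 24.7 at P0. The sum of 8 erythroid genes, of which 4 were lower and 1 higher, was 8281 to 33538 CPM at E12.5 and 111 to 229.7 at P0. The notochord marker T was read in every litter, at 242 to 942 CPM at E12.5 and 574 to 2323 at P0, and was not called (edgeR adjusted p = 0.117). The early notochord gene Noto stayed at or below 0.43 CPM throughout. Of 8 notochord and NP markers tested, 2 were higher at P0 (Krt19 and Cd24a) and 2 were lower (Shh and Foxa1). Shh was at 420 to 1348 CPM at E12.5 and 0.16 to 11.8 CPM at P0. The part of all these markers in the values that follow was not tested.

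**Figure D1:**
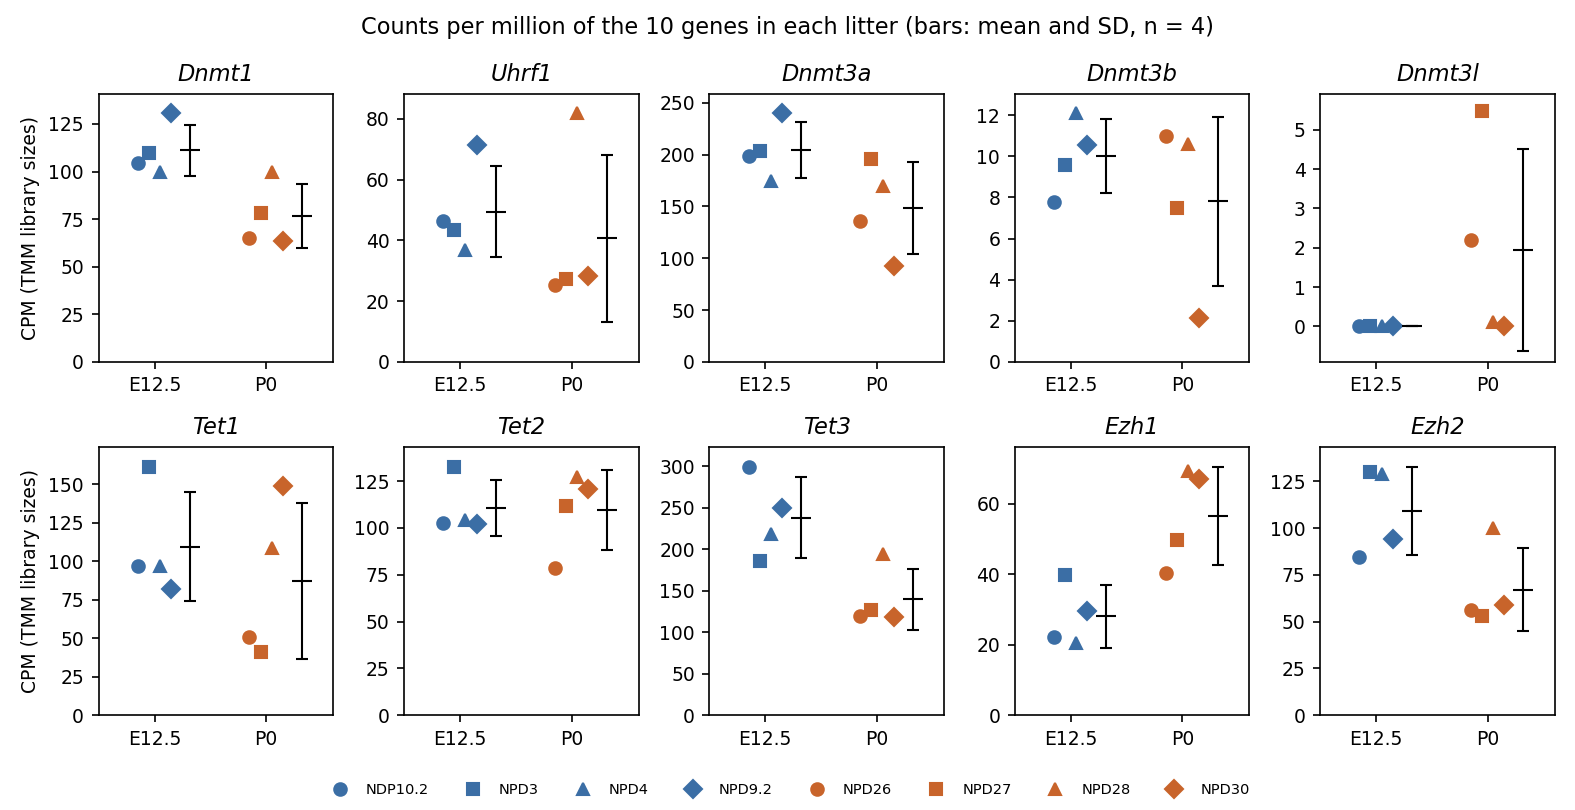
CPM of each gene (y axis, linear scale, a separate range per panel) in the 4 E12.5 litters (blue) and 4 P0 litters (orange), 1 point per litter, with the mean and SD (n = 4) as a black bar. The stages do not overlap for Dnmt1 and Ezh1, and the orange triangle, litter NPD28, is the highest P0 point for 6 of the 10 genes.

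Ezh1 and Ezh2 encode alternative catalytic subunits of PRC2, and their stage differences had opposite signs. Ezh1 (chr11:101191115-101226463, minus strand, GRCm38) was measured at 22.2, 39.8, 20.4 and 29.5 CPM in NDP10.2, NPD3, NPD4 and NPD9.2, and at 40.3, 49.7, 69.3 and 66.9 CPM in NPD26, NPD27, NPD28 and NPD30. Every P0 litter was above every E12.5 litter, although NPD26 exceeded NPD3 by less than 1 CPM. The log2 fold change was 1.02 (SE 0.28, adjusted p = 0.0208). Leaving out NDP10.2, NPD4, NPD9.2 or NPD28 ended the call, with adjusted p-values of 0.0696, 0.0511, 0.0545 and 0.0501.

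Ezh2 (chr6:47530139-47595341, minus strand) was measured at 84.7, 130.0, 129 and 93.9 CPM at E12.5 and at 56.0, 53.1, 100.3 and 59.0 CPM at P0. Litters NPD26, NPD27 and NPD30 lay below all E12.5 litters, and NPD28 lay among them. The log2 fold change was -0.71 (SE 0.27, 95% interval -1.30 to -0.11) with an adjusted p of 0.0754, which did not pass the threshold. DESeq2, which called 33.1% of all genes, gave -0.73 with an adjusted p of 0.0428. On simulated data with only 200 changed genes, it called unchanged genes more often than its threshold allows. Far more genes were called here, so that rate may not hold for these data. Upper quartile scaling, which called 28.6% of genes, gave -0.87 with an adjusted p of 0.0252. Ezh2 shares 174 exonic bases with the oppositely oriented Gm26625, which had 222 reads over the 8 libraries. The strand setting of the counting is not given in the sources used here.

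The ratio of Ezh2 to Ezh1 counts within a library does not depend on how libraries are scaled. It was 3.80, 3.26, 6.30 and 3.17 at E12.5 and 1.39, 1.07, 1.45 and 0.88 at P0. No P0 litter reached the range of the E12.5 litters, and the mean ratio (on the log2 scale) was 3.38-fold lower at P0, a log2 difference of -1.76 that compares with SDs of 0.46 and 0.34 (n = 4 each). The two-sided exact permutation test gave p = 0.0286, the smallest that 4 against 4 litters allow, and 0.114 after adjustment over the 4 ratios examined. With any single litter left out the log2 difference stayed between -1.87 and -1.54, and without NDP10.2 and NPD9.2 it was -1.95.

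**Figure D2:**
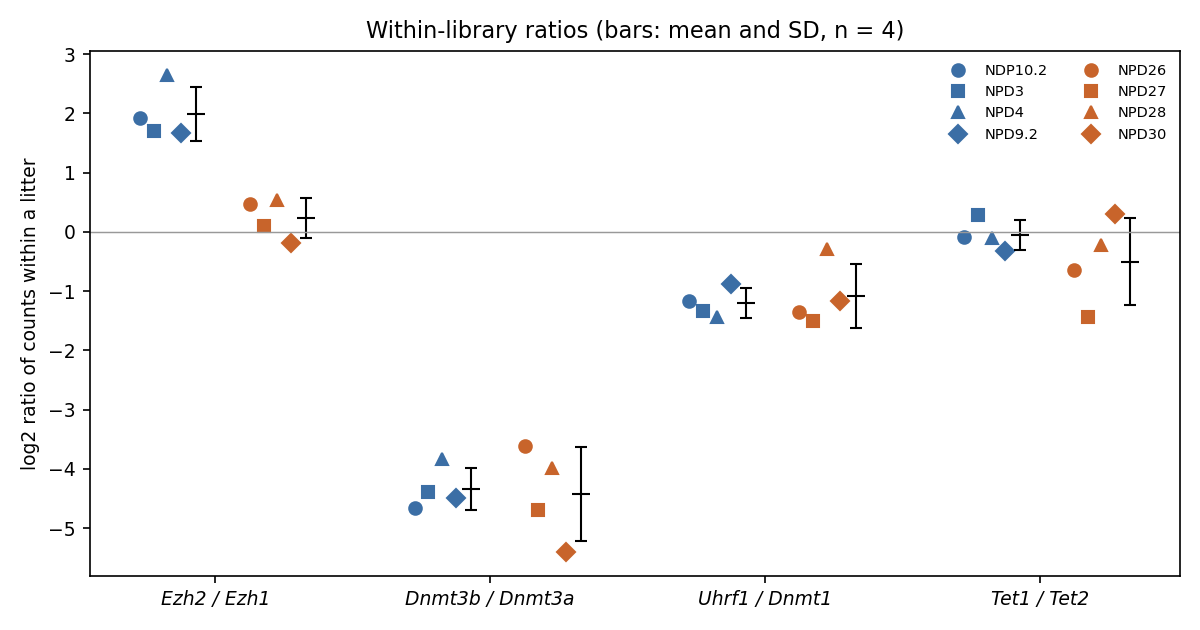
Log2 ratio of the counts of 2 genes within each library (y axis) for the 4 pairs examined, with E12.5 litters in blue, P0 litters in orange and the mean and SD (n = 4) as black bars. Ezh2 over Ezh1 averages 1.99 at E12.5 and 0.23 at P0 without overlap, and the other 3 ratios overlap between stages.

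The sequence before the RefSeq start site of each PRC2 gene is shown because the pair differed in direction. These are the 250 bases upstream of the RefSeq start on GRCm38.p6, minus strand, written 5′ to 3′ with CpG dinucleotides in capitals, at chr11:101226464-101226713 for Ezh1 and chr6:47595031-47595280 for Ezh2.
Ezh1: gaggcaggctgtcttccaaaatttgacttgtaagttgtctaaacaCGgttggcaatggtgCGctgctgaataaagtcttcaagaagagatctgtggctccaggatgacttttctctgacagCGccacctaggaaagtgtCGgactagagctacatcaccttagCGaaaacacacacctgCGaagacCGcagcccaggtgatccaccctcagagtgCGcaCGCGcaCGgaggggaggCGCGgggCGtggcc
Ezh2: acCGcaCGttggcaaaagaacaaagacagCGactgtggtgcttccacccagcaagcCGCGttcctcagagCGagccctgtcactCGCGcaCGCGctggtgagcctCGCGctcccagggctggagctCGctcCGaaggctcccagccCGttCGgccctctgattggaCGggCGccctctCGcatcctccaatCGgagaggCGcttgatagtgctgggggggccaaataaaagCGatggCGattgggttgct
The Ezh1 stretch holds 14 CpG dinucleotides and the Ezh2 stretch 23. The Ezh1 stretch lies outside the gene span given above. The Ezh2 stretch lies inside its own, which begins further upstream than the RefSeq start, so the stretches are not alike in position. Whether either was methylated was not measured.

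Maintenance of DNA methylation rests on Dnmt1 and Uhrf1. Dnmt1 (chr9:20907209-20959888, minus strand) was measured at 104, 109.9, 99.9 and 131 CPM at E12.5 and at 65.1, 78.2, 99.8 and 63.7 CPM at P0. The stages did not overlap, but NPD28 was almost level with NPD4, the lowest E12.5 litter. The log2 fold change was -0.53 (SE 0.22, adjusted p = 0.0977) and did not pass the threshold, while upper quartile scaling gave -0.69 (adjusted p = 0.0281). Dnmt1 and Ezh1 were the 2 of 9 without overlap, and 29.9% of all tested genes had stages that did not overlap.

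Uhrf1 (chr17:56303321-56323486, plus strand) was measured at 46.5, 43.5, 36.8 and 71.3 CPM at E12.5 and at 25.3, 27.4, 81.8 and 28.2 CPM at P0. Litters NPD26, NPD27 and NPD30 were within 3 CPM of each other and below all E12.5 litters, whereas NPD28 was the highest of all 8. The log2 fold change of -0.28 had a 95% interval from -1.17 to 0.61 (adjusted p = 0.649), wide enough to include a 1.52-fold higher level at P0. The Uhrf1 to Dnmt1 ratio overlapped between stages (log2 difference 0.12, exact permutation p = 0.83), with 0.82 in NPD28 against 0.35 to 0.44 in the other P0 litters.

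The de novo enzymes did not pass the threshold. Dnmt3a (chr12:3806007-3914443, plus strand) was the most read of the DNMT genes, at 199, 203, 174 and 239.7 CPM at E12.5 and 136, 196, 169.6 and 92.8 CPM at P0. NPD27 lay within the E12.5 range and the other P0 litters below it (log2 fold change -0.46, SE 0.26, adjusted p = 0.220). Dnmt3b (chr2:153649450-153687730, plus strand) was low at both stages, with 7.78, 9.56, 12.1 and 10.6 CPM at E12.5 and 11.0, 7.50, 10.6 and 2.12 CPM at P0. NPD27 and NPD30, the latter with 14 reads, stood below the E12.5 range, and the log2 fold change was -0.36 (SE 0.46, adjusted p = 0.606). The Dnmt3b to Dnmt3a ratio lay between 0.02 and 0.08 in all 8 litters and overlapped between stages (log2 difference -0.08, exact permutation p = 0.83).

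Dnmt3l (chr10:78041947-78063622, plus strand), best known from the germ line, had no read in any E12.5 litter, and 14, 38, 1 and 0 reads in NPD26, NPD27, NPD28 and NPD30. These correspond to 2.20, 5.48, 0.12 and 0 CPM, so its P0 signal came almost entirely from a pair of litters, and it did not pass the filter on low counts. Without that filter, where 15.2% of 32299 genes were called, its adjusted p was 0.00417, with a fold change that depends on the prior count and is not given. NPD26 and NPD27 also had the most genes with any count, 24334 and 26289 compared with 18477 to 22782 in the other litters. Dppa3, a germ-line and oocyte factor that limits UHRF1, showed 1.10 and 1.73 CPM in NPD26 and NPD27 and at most 0.24 elsewhere. Dnmt3l shares 67 exonic bases with the oppositely oriented Aire, and the strand setting of the counting is not given in the sources used here.

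Among the TET genes, which oxidise 5-methylcytosine, Tet3 was lower at P0. Tet3 (chr6:83362373-83459084, minus strand) was measured at 299, 185, 218 and 249 CPM at E12.5 and at 119, 127, 194 and 118 CPM at P0. NPD28 was above NPD3, so the stages overlapped, and the other P0 litters were below every E12.5 litter. The log2 fold change was -0.77 (SE 0.25, adjusted p = 0.0435). The call was kept when NPD3 or NPD28 was left out and lost without any of the other 6 litters, with adjusted p-values up to 0.111.

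Tet1 (chr10:62804570-62908996, minus strand) varied more within P0 than between stages, with 97.0, 161, 97.0 and 82.1 CPM at E12.5 and 50.5, 41.0, 109 and 149 CPM at P0. NPD26 and NPD27 were below every E12.5 litter, and NPD28 and NPD30 were inside the E12.5 range (log2 fold change -0.33, SE 0.41, adjusted p = 0.592). Tet2 (chr3:133463679-133545139, minus strand) was measured at 103, 133, 104 and 102 CPM at E12.5 and at 78.8, 112, 127 and 121 CPM at P0. Its log2 fold change was -0.01 (SE 0.22, adjusted p = 0.973), and the 95% interval of -0.50 to 0.48 runs from 0.705-fold to 1.39-fold of the E12.5 level. The Tet1 to Tet2 ratio ranged from 0.80 to 1.22 at E12.5 and from 0.37 to 1.23 at P0 (log2 difference -0.45, exact permutation p = 0.343, 0.686 after adjustment).

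**Figure D3:**
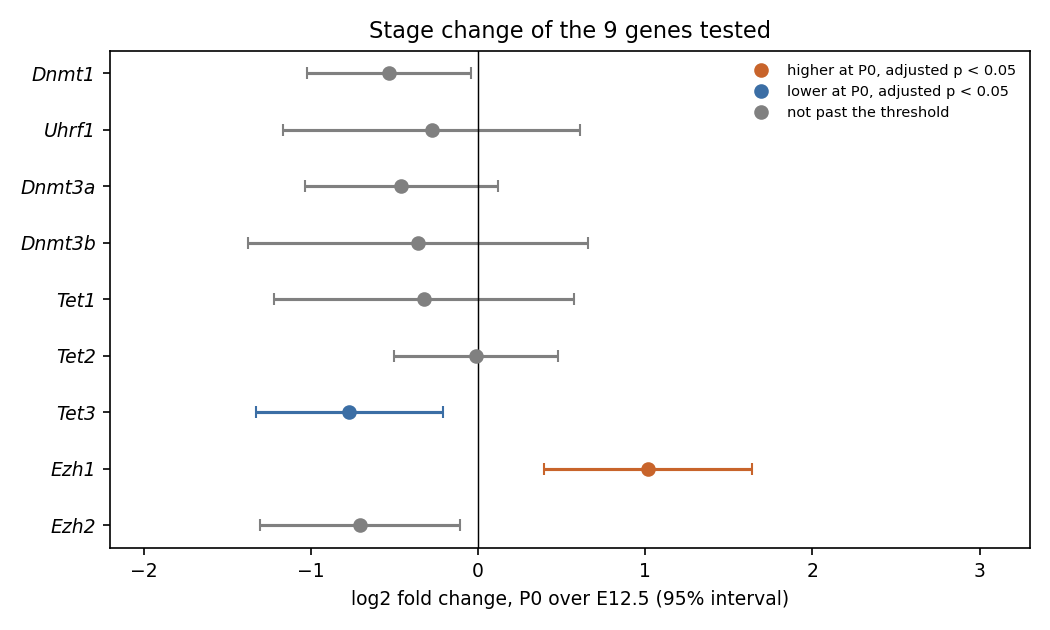
Log2 fold change of P0 over E12.5 (x axis) with its 95% interval for the 9 genes tested, coloured by whether the adjusted p was under 0.05. Ezh1 is at 1.02 and Tet3 at -0.77, and the other 7 lie between -0.71 and -0.01 without passing the threshold.

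The number of these genes lower at P0, 1 of 9, moved with the litters used. It was 0 without any single litter other than NPD3 or NPD28, 1 without NPD3 and 4 without NPD28. NPD28 was the highest P0 litter for Dnmt1, Uhrf1, Tet2, Tet3, Ezh1 and Ezh2, 6 of the 10. It was also the highest P0 litter for 17 of 18 markers of DNA replication and mitosis, including Mki67, a nuclear protein of cycling cells, at 946 CPM compared with 276, 408 and 596 CPM in NPD26, NPD27 and NPD30. It had the most reads of the 8 libraries and the highest sums of neutrophil and B lymphocyte markers, 8279 and 569 CPM, and the part of these in the result was not tested. With NPD28 left out, 4 of 9 genes were lower at P0 and none was higher. NPD28 was the highest P0 litter for all 4. Leaving it out by itself lowered their P0 means, so these calls give no separate support for a stage change. Over all 16005 genes then tested, 1722 were lower and 2171 were higher, 24.3% in either direction. The log2 fold changes were then -0.68 for Dnmt1 (adjusted p = 0.0454), -0.87 for Uhrf1 (adjusted p = 0.0423), -0.96 for Ezh2 (adjusted p = 0.0173) and -0.97 for Tet3 (adjusted p = 0.0167).

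With both E12.5 litters rich in serum protein transcripts left out, a check added after the data were seen, none of the 10 genes then tested was called, where 15.2% of all 16971 genes were. Ezh1 was then at 0.87 (adjusted p = 0.149), Tet3 at -0.57 (adjusted p = 0.224) and Ezh2 at -0.99 (adjusted p = 0.0695), all on the log2 scale and from 2 against 4 litters.

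The replication and mitosis markers were compared because Dnmt1, Uhrf1 and Ezh2 are commonly read most in cycling cells. Of 18 markers tested, 0 were higher and 1 was lower at P0, the thymidylate synthase gene Tyms (log2 fold change -1.18, adjusted p = 0.00623), with a list median of -0.24. Over all genes tested, 16.0% were higher and 12.0% lower. Mki67 was at 0.27, the DNA topoisomerase gene Top2a at -0.26, the sliding clamp gene Pcna at 0.48 and the helicase subunit gene Mcm2 at -0.48 on the log2 scale, with adjusted p-values from 0.180 to 0.625. Without NPD28, the highest P0 litter for 17 of the 18, the list median was -0.49, and again 1 of 18 was lower. In E12.5, NDP10.2 was the lowest litter for 14 of the 18.

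Short E2F-type motifs, which in many replication genes bind factors active around S phase, were searched in the promoter windows because Dnmt1, Uhrf1, Tet2, Tet3, Ezh1 and Ezh2 were all highest at P0 in NPD28. The letters were TTTGGCGC, TTTCCCGC, TTTCGCGC and TTTGCCGC on either strand, in RefSeq windows of 250 bases before to 50 after each start on GRCm38.p6, and each motif itself holds a CpG. They were found in 3 of the 17 windows of the 10 genes, and in 2.26% of all 32851 windows. By gene, 3 of 10 had a motif in any window, compared with 2.61% of 27025 genes. The windows compared were not matched for CpG content, and neither binding at these motifs nor a role for them was tested. The matches lie at -219 to -212 and 34 to 41 for Dnmt1, -185 to -178 for Uhrf1 and 4 to 11 for Ezh2. Positions count the start site of the window as base 1 and the base before it as -1. Of the 3 windows of Dnmt1 and the 2 of Uhrf1, only a single window of each held a match. Matches are in capitals in these stretches on the strand of the gene.
Dnmt1 upstream, chr9:20952824-20952853: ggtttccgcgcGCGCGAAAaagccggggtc
Dnmt1 downstream, chr9:20952574-20952601: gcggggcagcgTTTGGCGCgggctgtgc
Uhrf1, chr17:56304117-56304146: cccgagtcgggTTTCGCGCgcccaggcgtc
Ezh2, chr6:47595009-47595038: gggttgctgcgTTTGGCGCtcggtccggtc
The other 7 genes, Tet2, Tet3 and Ezh1 among them, had none of these letters in their windows. The median number of CpG dinucleotides was 22 in the windows of the 10 genes and 7 in all windows, with 57 for Tet2, 22 for Tet3 and 3 to 6 in the 3 windows of Dnmt3l.

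Levels of different genes were compared per kilobase of annotated exon. At E12.5 the order was Ezh2 at 16.4 ± 3.52 CPM per kilobase (SD, n = 4), Dnmt1 at 15.1 ± 1.84, Tet3 at 14.3 ± 2.91, Dnmt3a at 12.3 ± 1.63, Uhrf1 at 11.6 ± 3.54, Tet1 at 7.07 ± 2.29, Tet2 at 6.55 ± 0.88, Ezh1 at 3.76 ± 1.18 and Dnmt3b at 1.96 ± 0.35. The first 5 differed from their neighbours by less than the larger SD of the pair, as did Tet1 and Tet2. At P0 the order was Dnmt1 at 10.4 ± 2.27, Ezh2 at 10.04 ± 3.34, Uhrf1 at 9.55 ± 6.44, Dnmt3a at 8.92 ± 2.67, Tet3 at 8.36 ± 2.20, Ezh1 at 7.60 ± 1.87, Tet2 at 6.49 ± 1.27, Tet1 at 5.64 ± 3.28 and Dnmt3b at 1.53 ± 0.80. Neighbours from Dnmt1 to Tet1 differed by less than that again, and Dnmt3b stood below these at both stages. Dnmt3l was lowest of the 10, with no read at E12.5 and 0.65 ± 0.86 at P0, where it overlapped with Dnmt3b. The order rests on the length used: with the longest transcript as length, Ezh1 moved from place 6 to place 3 at P0.

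Genes that work beside the DNA methyltransferases and TET enzymes gave 14 genes tested, of which 0 were higher and 2 were lower at P0. The shares over all genes tested were 16.0% higher and 12.0% lower. The median log2 fold change was -0.59, compared with 0.04 for all genes. Zfp57, a zinc finger protein that protects methylation at imprinted regions, was measured at 91.8, 89.2, 82.4 and 85.6 CPM at E12.5 and at 17.3, 7.07, 7.89 and 10.6 CPM at P0. Every P0 litter was far below every E12.5 litter, 8.15-fold on average (log2 fold change -3.03, SE 0.30, adjusted p = 0.000148). Smug1, a uracil DNA glycosylase, was also lower (log2 fold change -0.93, adjusted p = 0.0482), a call that was lost when any litter other than NPD4 or NPD30 was left out. The UHRF1 relative Uhrf2 was at -0.53 and the chromatin remodeller Hells, which helps maintain methylation, at -0.74, with adjusted p-values of 0.0904 and 0.142. Trim28, the corepressor that ZFP57 recruits, was at -0.65 (adjusted p = 0.0739).

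Of 10 genes for proteins that bind methylated CpG, 3 were higher and 0 were lower at P0, with a median log2 fold change of 0.27. In all, 27.9% of the genes tested were called, 16.0% of them higher and 12.0% lower as shares of all tested. Mbd2, which links methylated DNA to the NuRD corepressor complex, was measured at 62.0, 92.3, 43.5 and 60.0 CPM at E12.5 and at 214, 163, 263 and 449 CPM at P0. All P0 litters were above all E12.5 litters (log2 fold change 2.08, SE 0.36, adjusted p = 0.00190). The zinc finger genes Zbtb38 (log2 fold change 1.41, adjusted p = 0.00209) and Zbtb4 (1.05, adjusted p = 0.0314) were also higher. The call for Zbtb4 was lost without any single E12.5 litter or without NPD30. Mbd1, Mbd3, Mbd4, Mbd5, Mbd6 and Zbtb33 lay between -0.45 and 0.59 without passing the threshold. None of 8 genes for the supply and recycling of S-adenosylmethionine, the methyl donor of all these enzymes, passed it in edgeR, and 2 of the 8 had an unadjusted p under 0.05.

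Among 10 other PRC2 subunits and partners, 1 was higher and 2 were lower, beside 16.0% and 12.0% of all genes tested. The core subunit genes Eed and Suz12 were at 0.39 and 0.51 on the log2 scale (adjusted p = 0.235 and 0.226), so neither was shown to differ alongside Ezh1. Jarid2, a cofactor that helps recruit PRC2, was measured at 96.7, 136, 133 and 109.9 CPM at E12.5 and at 48.4, 63.4, 76.5 and 50.8 CPM at P0. The stages did not overlap (log2 fold change -0.99, SE 0.23, adjusted p = 0.00888). Epop, another PRC2 partner, was lower from a low level, 5.19 to 12.1 CPM at E12.5 and 0.61 to 2.20 CPM at P0 (log2 fold change -2.46, adjusted p = 0.00560). Phf19, a Polycomb-like protein, was higher, at 0.97 to 2.59 CPM at E12.5 and 2.99 to 12.5 CPM at P0 (log2 fold change 1.79, adjusted p = 0.0333), but its call was kept only without NPD26 or NPD30 when litters were left out in turn.

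PRC1, which ubiquitinates histone H2A and in some of its forms binds the mark left by PRC2, gave 19 genes tested, of which 1 was higher and 3 were lower. Cbx2, a chromodomain subunit that reads the mark, was measured at 41.3, 43.9, 42.8 and 45.5 CPM at E12.5 and at 6.60, 5.34, 13.4 and 5.46 CPM at P0. The E12.5 litters were close together and the P0 litters all far below them, with NPD28 again the highest (log2 fold change -2.48, SE 0.33, adjusted p = 0.000522). The Polyhomeotic gene Phc1 (log2 fold change -1.35, adjusted p = 0.00194) and the RING partner gene Pcgf2 (-1.24, adjusted p = 0.00988) were lower as well. The catalytic subunit genes Ring1 and Rnf2 were at 0.41 and -0.32, and the H3K27 demethylase genes Kdm6a and Kdm6b at -0.23 and -0.63, with adjusted p-values from 0.236 to 0.477. These 6 pathway lists gave 12 genes called of 63 tested, 5 higher and 7 lower, compared with 27.9% of all genes tested. They were chosen with earlier results of these data known, so their counts describe the litters and carry no test of their own. Between stages, the genes lower at P0 shared their direction with the sclerotome, muscle and serum protein markers, and those higher with the leukocyte and osteoblast markers. Any gene called lower shares its direction with every marker set that is lower, so this likeness alone cannot single out a cell type. Within P0, NPD30 had the lowest summed leukocyte markers, at 417 CPM. It had the highest Mbd2, Zbtb38 and Zbtb4, at 449, 107 and 158 CPM, whereas Phf19 was highest in NPD28. Among P0 litters NPD30 also had the highest T, at 2323 CPM. Its summed notochord and osteoblast markers were the highest too, at 6935 and 671 CPM. The part of those cell types was not tested.

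**Figure D4:**
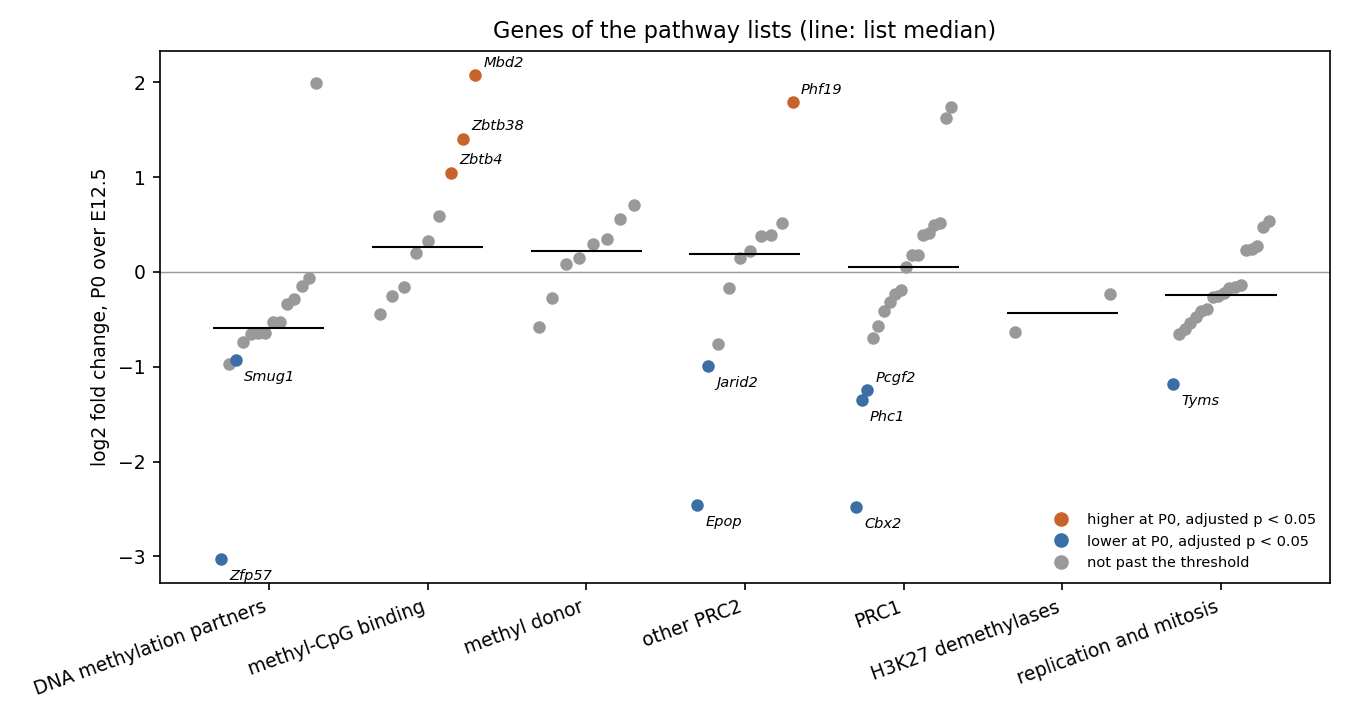
Log2 fold change of P0 over E12.5 (y axis) for the tested genes shown of 7 lists (x axis), ordered by value within a list, with the median over the whole list as a black line. Genes past the threshold are coloured and named, and of these Zfp57, Cbx2 and Epop lie lowest at -3.03, -2.48 and -2.46, and Mbd2 and Phf19 highest at 2.08 and 1.79.

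Genes whose profile over the 8 litters was most like those of Ezh1 and Tet3 were sought among 12687 genes by the root mean square (RMS) difference of centred log2 CPM. Nearest to Ezh1 were Atl3, Ano6 and Tbc1d8b, at RMS differences of 0.16, 0.17 and 0.18, against a median of 0.78 over all genes. Nearest to Tet3 were Gramd1a and Ssh1, at 0.11 and 0.13, against a median of 0.69. These values describe likeness only and carry no test.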

How the data were processed

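Read counts per gene were analysed in 8 libraries of NDCs, 4 litters at each stage. The deposited values are raw whole-number counts per gene. The authors aligned reads with STAR, then used htseq-count with the Gencode M4 annotation, and did not normalize the result. The submitters' processing notes name STAR 2.4.0j and CASAVA 1.8.2, and both GRCm38.p3 and mm9 as builds. The paper aligned to GRCm38, whose Gencode M21 annotation gave symbols to 42462 of 43346 identifiers, exon lengths and positions here.

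Genes were tested in R 4.3.3 with edgeR 4.0.16 (TMM scaling, filterByExpr with a minimum count of 10 and total of 15, robust quasi-likelihood F-test), in place of the paper's DESeq2 because counts were tested here with edgeR as the main method and DESeq2 1.42.0 as an alternative. Stage was the only term, p-values were adjusted by the Benjamini-Hochberg method over 15467 genes, and adjusted p under 0.05 was called. Replicates are separate litters. CPM uses TMM library sizes. Ratios added 0.5 counts and were tested by two-sided exact permutation. Log2 CPM profiles used a prior count of 2 and genes with a mean of at least 2. Other scalings, filters, limma 3.58.1 (voom), downsampling and leaving out litters were alternatives. Each tool was tested on 5 simulated data sets in which 200 of the 15467 genes were changed. In these, edgeR and voom held their nominal error but recovered few changes of 2-fold, so a gene past no threshold here may still differ. In the same sets DESeq2 called unchanged genes more often than its threshold allows. Far more genes were called in the real data, so error and recovery may differ there.

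The 10 genes and the lists were chosen with earlier results of these data known. Named genes are all 10, in each list the 2 largest rises and 3 largest falls past the threshold (lists of up to 10 genes in full where room allowed), Mki67, Top2a, Pcna and Mcm2, and the 3 genes nearest in profile. Dppa3, Hells, Trim28, Uhrf2, Tyms, Ring1, Rnf2, T, Noto, Shh, Foxa1, Krt19 and Cd24a were named with their values seen. A few genes that these rules name are not reported here. Promoter sequences came from RefSeq on GRCm38.p6 and matched all 10 genes.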

Additional observations from a re-analysis of the deposited data

Results flagged for a closer look

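Within each group of 4 litters, a value that stood apart from the other 3 by Dixon's criterion was noted for 7 of the 52 groups examined, where chance gives about 1 in 20.

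At P0, NPD28 stood above the other litters for Uhrf1, at 6.36 log2 CPM compared with 4.68 to 4.83. It also did so for Tet3, at 7.60 compared with 6.89 to 6.99, and for Ezh2, at 6.65 compared with 5.74 to 5.89. At E12.5, NPD3 stood above the others for Tet2, at 7.06 compared with 6.68 to 6.71. Zbtb4 was low in NPD4 at E12.5, at 4.74 log2 CPM compared with 5.84 to 6.02, and high in NPD30 at P0, at 7.31 compared with 6.44 to 6.53. Phf19 was low in NPD4 at E12.5, at 0.36 log2 CPM compared with 1.47 to 1.54. NPD4 also had the highest summed neural tube markers, 1652 CPM compared with 157 to 827 in the other 7 litters, and their part in these values was not tested.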

How the results depend on the processing

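No paired analysis was possible because the labels number litters separately at each stage. The number of genes called over the whole table was 4321, from 3612 to 4529 when single litters were left out and 2581 without NDP10.2 and NPD9.2. Upper quartile scaling moved the median log2 fold change of all genes from 0.04 to -0.11, and none of the 9 genes tested changed direction under any of the scalings tried. It called 3 of the 9 lower and 11 pathway genes lower (against 7), with Dnmt1 at -0.69 and Ezh2 at -0.87. DESeq2 gave 2 of the 9 lower (Ezh2 at -0.73) and 8 pathway genes higher (against 5). Its calls included too many unchanged genes on the simulated data, where only 200 genes were changed. Without the low-count filter 2 of the 10 genes were higher (Ezh1, and Dnmt3l at an adjusted p of 0.00417), 0 were lower (Tet3 at -0.76, adjusted p = 0.0609) and 8 pathway genes were higher. Without NDP10.2 and NPD9.2, 0 of the 10 genes were higher and 0 lower, with Tet3 at -0.57 and Ezh1 at 0.87. Tet2 turned to 0.0062 with at least 10 counts in every sample. Leaving out single litters gave 0 to 1 of the 9 genes higher, 0 to 4 lower, 2 to 6 pathway genes higher, and log2 fold changes of -0.68 to -0.45 for Dnmt1, -0.87 to -0.094 for Uhrf1, -0.10 to 0.13 for Tet2, -0.97 to -0.69 for Tet3, 0.88 to 1.20 for Ezh1 and -0.96 to -0.60 for Ezh2. The log2 ratio difference ran from -0.35 to 0.24 for Dnmt3b over Dnmt3a and from -0.15 to 0.26 for Uhrf1 over Dnmt1, where the smallest p with 3 against 4 litters is 0.0571. With the longest transcript as length, levels over all 8 litters were 16.0 CPM per kilobase for Dnmt1, 18.2 for Dnmt3a, 12.0 for Tet2, 17.3 for Tet3, 10.05 for Ezh1 and 31.7 for Ezh2. The causes of these shifts were not tested. Depth limits Dnmt3l most, with at most 38 reads in a library.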
